A study of Mus musculus with 23 samples.

Results

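Diacylglycerol kinases are the enzymes that phosphorylate diacylglycerol to phosphatidic acid, and the mouse genes examined here were Dgka, Dgkb, Dgkd, Dgke, Dgkg, Dgkh, Dgki, Dgkq and Dgkz. They were picked by gene symbol as a family, with earlier results of these data known, and all 9 were found among the 20599 genes of the RNA-seq table. The levels are TPM (transcripts relative to a fixed library total, a read count scaled for transcript length and for the library total), so levels of different genes can be set side by side. The libraries came from β-TC6 cells, an insulin-secreting mouse insulinoma line, in 3 genotypes with 3 replicate wells each. WT cells carried no edit, Bmal1-/- cells had lost exon 8 of Bmal1 (named Arntl in the annotation) through CRISPR–Cas9, and Clock-/- cells had lost exons 6 and 7 of Clock in the same way. Each knockout line was grown from 1 hand-picked clone, selected with G418 for Bmal1 and with puromycin for Clock, and cells were used at passages 5 to 15. Genotype, clone and selection drug therefore cannot be told apart, and p-values measure the spread between wells of a line.

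Diacylglycerol is the membrane lipid that phospholipase C releases when it cleaves phosphatidylinositol 4,5-bisphosphate, and in β cells it recruits protein kinases C and D and the vesicle-priming UNC13 proteins. Diacylglycerol kinases end this signal, and the phosphatidic acid they make feeds the resynthesis of phosphatidylinositol. The family is divided into 5 types by the domains beside the catalytic core. Type I (Dgka, Dgkb, Dgkg) has calcium-binding EF hands, type II (Dgkd, Dgkh) a split catalytic domain with a pleckstrin homology domain, type III (Dgke) is the short enzyme with a preference for arachidonoyl-diacylglycerol, type IV (Dgki, Dgkz) carries ankyrin repeats and a MARCKS-like nuclear localization motif, and type V (Dgkq) has an additional C1 domain and a Ras-associating domain.

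CLOCK and BMAL1 bind DNA together at E-boxes, of which CACGTG is the canonical form, so the promoters of the members that moved in the RNA-seq comparisons are shown first. They are given 5′ to 3′ from RefSeq (build GRCm38.p6, which has mm10 coordinates), from 250 bases before to 50 bases after an annotated start, with any CACGTG in capitals. An annotated start is not always the 5′ end of the gene. The Dgkb, Dgkq, Dgka and Dgke windows shown lie inside the gene spans given below. Dgkb fell in both knockout lines, Dgkg and Dgkq fell in Clock-/- cells, Dgka and Dgke rose in Bmal1-/- cells, and the Dgkh window is added because it holds THRAP3 ChIP-seq peaks.
Dgkb promoter, chr12:37879924-37880223, plus strand: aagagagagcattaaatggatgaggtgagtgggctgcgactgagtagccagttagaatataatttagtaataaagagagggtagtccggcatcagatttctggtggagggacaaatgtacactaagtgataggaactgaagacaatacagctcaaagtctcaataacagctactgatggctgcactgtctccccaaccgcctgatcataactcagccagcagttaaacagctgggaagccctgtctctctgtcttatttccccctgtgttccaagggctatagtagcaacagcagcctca
Dgkg promoter, chr16:22657182-22657481, minus strand: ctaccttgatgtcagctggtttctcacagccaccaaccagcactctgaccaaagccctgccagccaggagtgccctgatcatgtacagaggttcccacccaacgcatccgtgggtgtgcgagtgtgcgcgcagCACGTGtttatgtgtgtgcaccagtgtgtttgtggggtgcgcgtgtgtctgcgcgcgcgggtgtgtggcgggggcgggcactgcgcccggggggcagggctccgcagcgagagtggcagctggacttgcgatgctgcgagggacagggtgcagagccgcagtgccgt
Dgkq promoter, chr5:108660781-108661080, minus strand: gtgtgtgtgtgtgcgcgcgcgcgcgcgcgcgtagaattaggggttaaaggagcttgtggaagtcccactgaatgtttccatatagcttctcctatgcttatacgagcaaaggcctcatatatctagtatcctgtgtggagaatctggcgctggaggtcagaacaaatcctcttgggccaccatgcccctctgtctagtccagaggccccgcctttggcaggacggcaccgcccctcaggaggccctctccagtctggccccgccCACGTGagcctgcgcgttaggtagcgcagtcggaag
Dgka promoter, chr10:128737563-128737862, minus strand: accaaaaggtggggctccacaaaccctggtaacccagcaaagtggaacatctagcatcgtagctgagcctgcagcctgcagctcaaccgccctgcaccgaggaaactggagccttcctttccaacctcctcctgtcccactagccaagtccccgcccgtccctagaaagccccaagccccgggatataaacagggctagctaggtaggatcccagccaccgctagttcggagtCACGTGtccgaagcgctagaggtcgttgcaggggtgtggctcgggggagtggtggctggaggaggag
Dgke promoter, chr11:89060699-89060998, minus strand: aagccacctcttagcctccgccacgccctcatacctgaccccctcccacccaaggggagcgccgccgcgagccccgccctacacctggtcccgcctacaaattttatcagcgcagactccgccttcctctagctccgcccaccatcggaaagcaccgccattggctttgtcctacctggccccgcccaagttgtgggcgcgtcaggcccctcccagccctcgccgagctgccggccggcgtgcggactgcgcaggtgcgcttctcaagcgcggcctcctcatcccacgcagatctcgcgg
Dgkh promoter, chr14:78732680-78732979, minus strand: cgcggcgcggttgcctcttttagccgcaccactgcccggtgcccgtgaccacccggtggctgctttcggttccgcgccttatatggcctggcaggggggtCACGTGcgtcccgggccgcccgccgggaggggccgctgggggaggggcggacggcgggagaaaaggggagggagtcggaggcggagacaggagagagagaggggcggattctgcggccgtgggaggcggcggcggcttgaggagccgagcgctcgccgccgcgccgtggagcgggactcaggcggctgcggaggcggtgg
All 9 members matched this promoter set, with 15 windows in all because Dgka, Dgkh and Dgkz have several starts. CACGTG was present in a window of 4 members, namely Dgka, Dgkg, Dgkh and Dgkq. It began 17 bases before the start in the Dgka window shown, 117 before in Dgkg, 150 before in the Dgkh window shown and 49 before in another Dgkh window, and 14 after the start in Dgkq. The other Dgka windows, which are not printed, held no CACGTG. Over the 27025 genes of the promoter set, 8.09% held CACGTG in a window, and 7.15% of all 32851 windows did. The variant CACGTT, read on both strands, was in none of the 15 windows and in 4.68% of all windows. The Dgkb window, of the member that fell most, held neither hexamer, which says only that these letters were not in this window.

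Dgkb, the calcium-responsive type I enzyme best known from brain, was the member that fell in both lines. The authors had already named Dgkb among the transcripts inhibited in the clock mutant cells, so its fall is not an independent finding. Its transcript stood at 15.3, 12.9 and 12.4 TPM in WT, at 1.42, 2.37 and 1.81 TPM in Bmal1-/- and at 2.76, 2.44 and 3.93 TPM in Clock-/- libraries. Every knockout library was below every WT library, and the highest Bmal1-/- value was just below the lowest Clock-/- value. The mean level fell from 13.5 ± 1.57 TPM (SD, n = 3) in WT to 13.8% of that in Bmal1-/- and 22.5% in Clock-/- cells. On the log2 scale of TPM + 1, used for all fold changes here, the change was −2.35 (SE 0.17, adjusted p = 4.02e-06) in Bmal1-/- and −1.86 (SE 0.17, adjusted p = 3.21e-05) in Clock-/- cells. The direct difference of Bmal1-/- from Clock-/- cells, −0.49 (95% confidence interval −0.88 to −0.10), had an adjusted p of 0.0343 and did not pass the 0.01 threshold. Both falls passed the test under all 20 processing alternatives, with log2 changes between −2.82 and −2.08 in Bmal1-/- and between −2.14 and −1.75 in Clock-/- cells. Dgkb (ENSMUSG00000036095) spans 817 kb of chromosome 12, from 37817726 to 38634239 on the plus strand of mm10. The median change of the 50 tested genes nearest to it was −0.29 in Bmal1-/- and −0.04 in Clock-/- cells.

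**Figure D1:**
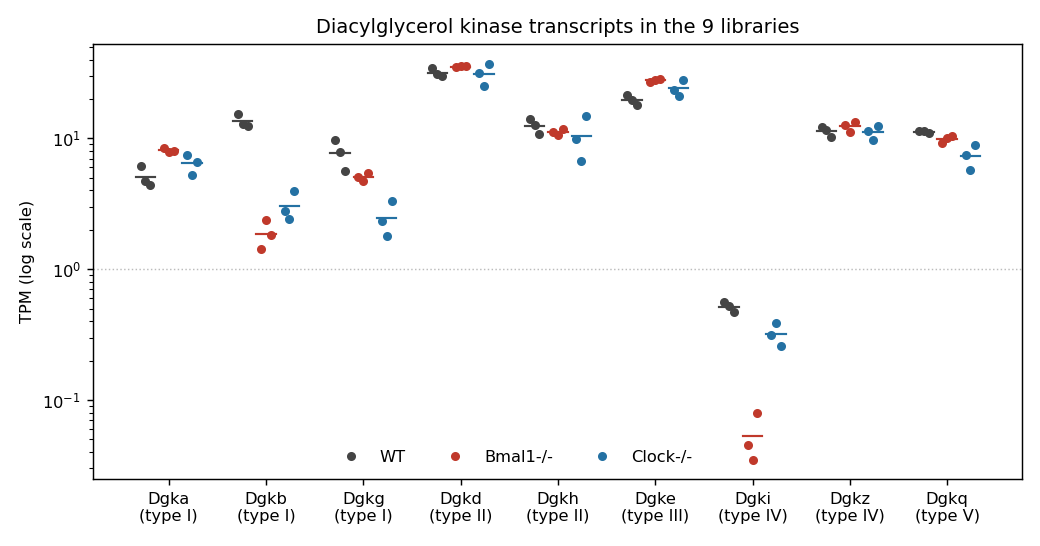
TPM of each diacylglycerol kinase (log axis) in the 9 libraries, 3 per genotype, with points for libraries, short lines for means and a dotted line at 1 TPM. Dgkb lies between 12.4 and 15.3 TPM in WT and at or below 3.93 TPM in every knockout library, Dgkg is lowest in Clock-/- cells, and Dgki stays under 1 TPM throughout.

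Dgkg, the type I enzyme that acts with the Rac inhibitor β2-chimaerin, fell in Clock-/- cells. It was at 9.78, 7.92 and 5.66 TPM in WT, at 5.10, 4.69 and 5.42 TPM in Bmal1-/- and at 2.34, 1.81 and 3.29 TPM in Clock-/- libraries. The Clock-/- libraries were the lowest, and the Bmal1-/- libraries lay just under the lowest WT library. The log2 change was −1.33 (SE 0.20, adjusted p = 0.000675) in Clock-/- and −0.51 (SE 0.20, adjusted p = 0.0566) in Bmal1-/- cells. The difference between the knockout lines was 0.82 (SE 0.20, adjusted p = 0.00581), higher in Bmal1-/- cells. Genes of chromosome 16, where Dgkg lies from 22468461 to 22657221 on the minus strand, had a median change of −0.46 in Clock-/- cells against −0.02 over all tested genes. With the chromosome median subtracted, the Clock-/- fall was −0.89 (adjusted p = 0.00198) and still passed, whereas the difference between the lines became 0.37 (adjusted p = 0.0691). That difference also missed the threshold without WT replicate 2, any 1 Bmal1-/- replicate or Clock-/- replicate 1 or 2, at adjusted p between 0.0105 and 0.023. A noncoding antisense gene inside Dgkg, Gm15651, was at 7.15, 5.58 and 5.53 TPM in WT, 1.24, 2.05 and 1.77 TPM in Bmal1-/- and 5.26, 3.62 and 5.88 TPM in Clock-/- libraries. Its lowest values were in the Bmal1-/- libraries, and the part of its reads in the Dgkg values was not tested. The library kit keeps strand, but the strand setting of the authors' counting is not given in the sources used here.

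Dgka, the third type I enzyme, known from T cells, rose in Bmal1-/- cells. It was at 6.10, 4.68 and 4.42 TPM in WT, 8.44, 7.83 and 8.03 TPM in Bmal1-/- and 7.43, 5.25 and 6.62 TPM in Clock-/- libraries. The Bmal1-/- libraries were above all others, while the Clock-/- and WT ranges overlapped. The log2 change was 0.59 (SE 0.15, adjusted p = 0.00645) in Bmal1-/- and 0.29 (SE 0.15, adjusted p = 0.145) in Clock-/- cells, and the lines did not differ past the threshold (0.30, 95% confidence interval −0.02 to 0.63, adjusted p = 0.0991). The rise passed the test under 13 of 20 alternatives. It missed the threshold without WT replicate 2 or 3 or any 1 Bmal1-/- replicate (adjusted p 0.0183 to 0.028), with no filter on low TPM (adjusted p = 0.0117) and with the median of its 36 tested neighbours subtracted (log2 change 0.33, adjusted p = 0.0454). Dgka (ENSMUSG00000025357) lies on chromosome 10 from 128720134 to 128744855.

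Dgke, the type III enzyme of the phosphatidylinositol cycle, was the second most abundant member and rose in Bmal1-/- cells. It was at 21.2, 19.5 and 17.9 TPM in WT, 26.9, 27.9 and 28.4 TPM in Bmal1-/- and 23.5, 20.9 and 28.1 TPM in Clock-/- libraries. All Bmal1-/- libraries were above all WT libraries, and the Clock-/- libraries spread across both. The log2 change was 0.49 (SE 0.11, adjusted p = 0.00439) in Bmal1-/- and 0.28 (SE 0.11, adjusted p = 0.0685) in Clock-/- cells, and the difference between the lines, 0.20 (95% confidence interval −0.05 to 0.45), had an adjusted p of 0.145. Genes of chromosome 11, where Dgke (ENSMUSG00000000276) lies from 89035179 to 89066850, had a median change of 0.35 in Bmal1-/- cells. The rise passed the test under 13 of 20 alternatives. With the chromosome median subtracted the Bmal1-/- change of Dgke was 0.13 (adjusted p = 0.187), and with the median of its 50 nearest tested genes subtracted it was 0.40 (adjusted p = 0.00122). The call was also lost with the replicate number as a block (adjusted p = 0.0119) and without WT replicate 2 or 3 or any 1 Bmal1-/- replicate (adjusted p 0.0124 to 0.0196). In Clock-/- cells Dgke passed the test as a rise with quantile normalization (0.36, adjusted p = 0.0018) and with library medians centred (0.35, adjusted p = 0.0017), and under none of the other 18 alternatives.

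Dgkq, the type V enzyme, fell in Clock-/- cells. It was at 11.4, 11.4 and 10.9 TPM in WT, 9.20, 9.97 and 10.4 TPM in Bmal1-/- and 7.43, 5.73 and 8.88 TPM in Clock-/- libraries. The ranges of the 3 genotypes did not overlap, with Clock-/- the lowest. The log2 change was −0.57 (SE 0.14, adjusted p = 0.00872) in Clock-/- and −0.17 (SE 0.14, adjusted p = 0.305) in Bmal1-/- cells, and the lines differed by 0.40 (95% confidence interval 0.09 to 0.70, adjusted p = 0.0298), short of the threshold. This fall was the least stable call, since it passed under 7 of 20 alternatives and missed the threshold without any 1 library other than Clock-/- replicate 3 (adjusted p 0.011 to 0.0334). Chromosome 5 genes had a median change of −0.26 in Clock-/- cells, and with it subtracted Dgkq stood at −0.32 (adjusted p = 0.0386). Dgkq (ENSMUSG00000004815, 108646693 to 108669672) overlaps Idua and Tmem175 on the opposite strand. Idua was at 15.2 to 16.3 TPM in WT, 8.25 to 9.99 TPM in Bmal1-/- and 12.1 to 15.1 TPM in Clock-/- libraries. Tmem175 was at 11.8 to 12.6, 11.3 to 11.5 and 8.48 to 10.8 TPM in the same order, lowest in Clock-/- cells as was Dgkq. The part of overlapping reads in the Dgkq values was not tested.

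Counted together, 3 of the 8 tested members passed the test in each knockout line, where 39.4% of the 15031 genes tested did so in Bmal1-/- and 23.9% in Clock-/- cells. In Bmal1-/- cells 2 members rose and 1 fell, against 18.4% and 21.0% of all tested genes, and the members' median log2 change was −0.01 beside −0.04 over all genes. In Clock-/- cells 0 members rose and 3 fell, against 9.50% and 14.4% of all genes, with a median of −0.17 beside −0.02, and Dgke was a rise there under the alternatives named above. The member share was near the background in Bmal1-/- cells. In Clock-/- cells 1 of the 3 falls, Dgkq, passed under 7 of 20 alternatives, so the share there rests in part on an unstable call. Dgkb was the 1 member that fell in both lines, as did 6.85% of all tested genes, with the WT libraries shared by the comparisons. A log2 change beyond 1 in size that passed the test was seen for 1 member (Dgkb, a fall) in Bmal1-/- cells, against 11.8% of all genes in either direction and 7.97% downwards, and for 2 (Dgkb and Dgkg, both falls) in Clock-/- cells, against 7.40% and 4.78%. Between the lines, 1 member passed (Dgkg, higher in Bmal1-/-) and 0 were lower, against 44.6% of all genes in either direction, 22.8% higher and 21.8% lower, and 0 members differed by more than 1, against 14.5% of genes in either direction and 8.27% downwards. TPM ranges of 6 tested members did not overlap between Bmal1-/- and WT, and those of 3 did not between Clock-/- and WT, where 67.1% and 46.5% of all tested genes did not overlap. Between the lines 4 members did not overlap, against 63.0% of genes.

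**Figure D2:**
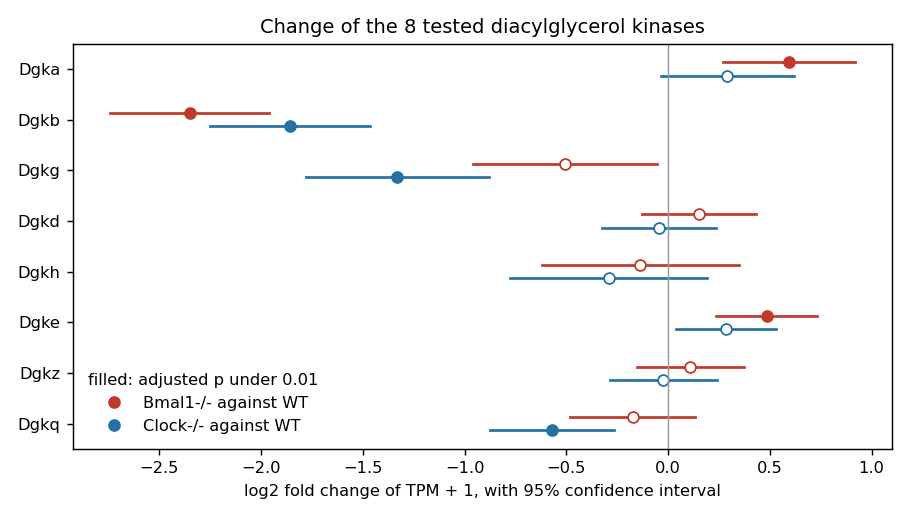
Log2 fold change of TPM + 1 (x axis) of the 8 tested members in each knockout line against WT, with 95% confidence intervals as lines and filled points for an adjusted p under 0.01. Dgkb is at −2.35 and −1.86, Dgkg at −1.33 in Clock-/- cells, and the intervals of Dgkd, Dgkh and Dgkz include 0 in both lines.

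Dgkd, Dgkh and Dgkz passed the test in neither line. Dgkd, a type II enzyme that regulates receptor signaling through protein kinase C, was the most abundant member, at 34.5, 31.0 and 30.0 TPM in WT, 34.9, 35.8 and 35.5 TPM in Bmal1-/- and 31.5, 25 and 37.1 TPM in Clock-/- libraries. The 3 Bmal1-/- values lay just above the WT range and the Clock-/- values on both sides of it. Its log2 change was 0.15 (95% confidence interval −0.13 to 0.43, adjusted p = 0.338) in Bmal1-/- and −0.04 (−0.32 to 0.24, adjusted p = 0.82) in Clock-/- cells. Chromosome 1 genes had a median of −0.35 in Bmal1-/- cells, and relative to it Dgkd was higher by 0.50 (adjusted p = 0.000761), a call present only with chromosome or neighbour medians subtracted.

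Dgkh, the other type II enzyme, was at 14.1, 12.6 and 10.9 TPM in WT, 11.2, 10.7 and 11.9 TPM in Bmal1-/- and 9.86, 6.77 and 14.7 TPM in Clock-/- libraries. The groups overlapped, and Clock-/- cells had the widest spread of this member. Its log2 change was −0.14 (95% confidence interval −0.62 to 0.35, adjusted p = 0.616) in Bmal1-/- and −0.29 (−0.78 to 0.19, adjusted p = 0.322) in Clock-/- cells. Dgkz, a type IV enzyme found in the nucleus and at synapses, was at 12.1, 11.7 and 10.3 TPM in WT, 12.6, 11.1 and 13.4 TPM in Bmal1-/- and 11.5, 9.75 and 12.4 TPM in Clock-/- libraries. The 3 groups overlapped, and its log2 change was 0.11 (−0.15 to 0.37, adjusted p = 0.453) in Bmal1-/- and −0.02 (−0.28 to 0.24, adjusted p = 0.899) in Clock-/- cells. The intervals of these 3 genes reach 0.43 for Dgkd, −0.78 for Dgkh and 0.37 for Dgkz, so changes up to that size are not excluded.

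Dgki, the type IV enzyme expressed mainly in brain and retina, did not reach 1 TPM in any library and was left out of the main test. It was at 0.559, 0.519 and 0.468 TPM in WT, 0.0452, 0.0351 and 0.0791 TPM in Bmal1-/- and 0.313, 0.388 and 0.259 TPM in Clock-/- libraries. The genotypes did not overlap and Bmal1-/- was the lowest. With no filter on low TPM its log2 change was −0.53 (adjusted p = 0.000382) in Bmal1-/- and −0.20 (adjusted p = 0.069) in Clock-/- cells, a scale on which the added 1 is larger than the level itself. Genes with a listed TPM of 0 numbered 2189 to 2691 per Bmal1-/- library, 687 to 905 per WT library and 791 to 1010 per Clock-/- library, and the part of this in the Dgki values was not tested. Dgki lies on chromosome 6 from 36846022 to 37300184.

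In WT cells the order of mean levels was Dgkd (31.8 TPM), Dgke (19.6), Dgkb (13.5), Dgkh (12.5), Dgkz (11.4), Dgkq (11.3), Dgkg (7.79), Dgka (5.07) and Dgki (0.515). The ranges of Dgkb and Dgkh, of Dgkh and Dgkz, of Dgkz and Dgkq, and of Dgkg and Dgka overlapped, so these neighbours were not separated by their spread. Dgkd and Dgke led in all 3 genotypes. Dgkb, in position 3 in WT, was in position 8 in Bmal1-/- and 7 in Clock-/- cells, and Dgka was above Dgkg in both knockout lines. The summed TPM of the 9 members was 103 to 125 in WT, 110 to 115 in Bmal1-/- and 78.0 to 115 in Clock-/- libraries, which overlap. Within this sum, type I transcripts made up 21.9% to 24.9% in WT, 13.3% to 13.6% in Bmal1-/- and 12% to 13.0% in Clock-/- libraries, and neither knockout range overlapped the WT range. Dgkb alone was 11.5% to 12.3% of the sum in WT, 1.30% to 2.15% in Bmal1-/- and 2.86% to 3.41% in Clock-/- libraries. The share of type III, Dgke, was 17.0% to 17.4% in WT, 24.5% to 25.3% in Bmal1-/- and 24.3% to 26.8% in Clock-/- libraries. Shares are parts of a whole, so the fall of Dgkb raises the shares of the other members. Dgke itself did not pass the limma test in Clock-/- cells (log2 change 0.28, adjusted p = 0.0685). WT replicate 3 had the lowest TPM of all 9 members in WT and Clock-/- replicate 2 the lowest of 8 members in its line, and these libraries also had the lowest median TPM over all genes in their genotype, 6.03 and 5.57. No Bmal1-/- library was low throughout, as replicate 1 was lowest for 4 members and replicate 2 for 5.

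**Figure D3:**
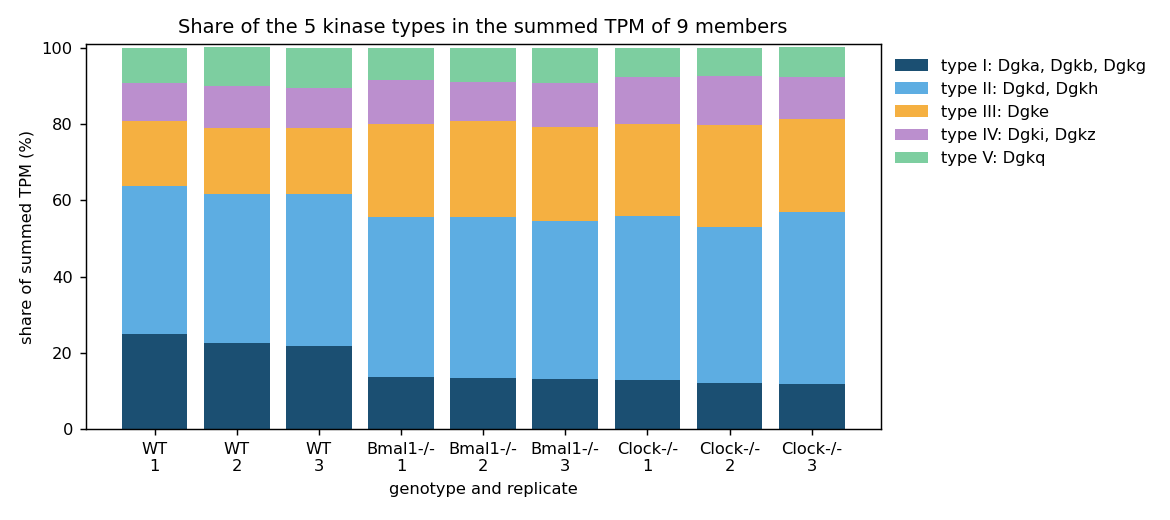
Stacked bars give the share (%) of each of the 5 enzyme types in the summed TPM of the 9 members, for each library. Type I is 21.9% to 24.9% in WT and 12% to 13.6% in the knockout libraries, and type III is at most 17.4% in WT and at least 24.3% in the knockout libraries. A fall of type I raises the shares of the other types without a rise of their transcripts.

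The genes whose departures from the WT mean over the 9 libraries were most like those of Dgkb, among 11632 genes ranked by root mean square difference of log2(TPM + 1), were Nr4a3, an orphan nuclear receptor induced by calcium and cyclic AMP signals, at 0.155, Kcnma1, the large-conductance calcium-activated potassium channel, at 0.189, and Rbp3, a retinoid-binding protein, at 0.222. The median difference over all ranked genes was 1.76. Nr4a3 was at 8.03, 9.26 and 8.84 TPM in WT, 0.636, 1.01 and 0.797 TPM in Bmal1-/- and 1.14, 1.11 and 2.26 TPM in Clock-/- libraries, so WT stood apart from both lines. For Dgkg the nearest genes were Stox2 (0.109), Plcxd2, which has a phospholipase C X domain (0.116), and the zinc transporter gene Slc39a10 (0.157), against a median of 0.897. Plcxd2 was at 18.7, 16.8 and 13.9 TPM in WT, 9.70, 10.9 and 12.6 TPM in Bmal1-/- and 6.48, 4.52 and 7.95 TPM in Clock-/- libraries, again lowest in Clock-/- cells. These genes were selected for likeness, so their values describe the ranking and carry no test.

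Around the members, 64 genes of 8 lists that make, use or recycle diacylglycerol were examined, and 43 were tested. In Bmal1-/- cells 13 rose and 7 fell, with a median log2 change of 0.08 beside −0.04 over all genes, and in Clock-/- cells 5 rose and 5 fell, with a median of −0.10 beside −0.02. Over all tested genes, the shares to read these and the following list counts against were 18.4% that rose and 21.0% that fell in Bmal1-/- and 9.50% and 14.4% in Clock-/- cells. Of the phospholipases C, which release diacylglycerol, 1 of 6 tested rose and 1 fell in Bmal1-/- cells and 0 of 6 passed in Clock-/- cells. Plcg2 was at 5.39, 5.2 and 4.93 TPM in WT and at 0.558, 0.306 and 0.383 TPM in Bmal1-/- libraries, a log2 change of −2.13 (SE 0.13, adjusted p = 9.28e-07). Plcg1, the more abundant γ isozyme, went the other way, from 82.2, 77.4 and 71.5 TPM in WT to 156, 142 and 152 TPM in Bmal1-/- libraries (log2 change 0.95, adjusted p = 7.86e-05). Gna11, a Gq-class subunit that activates phospholipase C β, was the 1 of 3 tested subunits that rose in Bmal1-/- cells (log2 change 0.40, adjusted p = 0.000315), and 0 of 3 passed in Clock-/- cells.

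Of the 10 tested genes whose proteins bind diacylglycerol through a C1 domain, 3 rose and 1 fell in Bmal1-/- cells, and 2 rose and 1 fell in Clock-/- cells. Prkd2, a protein kinase D, was at 2.70, 2.74 and 2.60 TPM in WT, 11.3, 10.3 and 11.3 TPM in Bmal1-/- and 2.97, 2.52 and 2.56 TPM in Clock-/- libraries, with a log2 change of 1.70 (SE 0.11, adjusted p = 1.36e-06) in Bmal1-/- cells. The other genes that rose there were Prkd3 (log2 change 1.62, adjusted p = 2.27e-05) and Prkcd (1.14, adjusted p = 1.30e-05), and Prkd3 also rose in Clock-/- cells (0.70, adjusted p = 0.00666). Prkcb, a conventional protein kinase C, rose in Clock-/- cells, from 10.9, 9.77 and 10.6 TPM in WT to 19.3, 15.5 and 20.5 TPM (log2 change 0.76, adjusted p = 0.000569), and stood at −0.08 (adjusted p = 0.57) in Bmal1-/- cells. Chn1, which encodes α-chimaerin, fell in both lines, by −1.07 (adjusted p = 4.62e-05) and −0.66 (adjusted p = 0.00161).

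Among the enzymes that interconvert diacylglycerol and phosphatidic acid, Plpp2, a phosphatidate phosphatase, rose in both lines, from 15.4, 18.9 and 19.6 TPM in WT to 41.2, 37.6 and 39.8 TPM in Bmal1-/- (log2 change 1.10, adjusted p = 1.07e-05) and 35.5, 32.6 and 33.9 TPM in Clock-/- libraries (0.89, adjusted p = 7.80e-05). Of 5 tested phosphatidate phosphatases, 2 rose and 0 fell in each line, where 18.4% and 9.50% of all genes rose in Bmal1-/- and Clock-/- cells. Pld1, which makes phosphatidic acid from phosphatidylcholine and was the 1 phospholipase D tested, fell in Bmal1-/- cells (log2 change −1.58, adjusted p = 4.91e-05) and stood at 0.21 (adjusted p = 0.386) in Clock-/- cells. Of 8 tested genes of phosphatidylinositol resynthesis, 4 rose and 2 fell in Bmal1-/- cells, and 1 rose and 1 fell in Clock-/- cells. Pip5k1c, a phosphatidylinositol 4-phosphate 5-kinase, rose in both (1.40, adjusted p = 2.00e-05, and 0.79, adjusted p = 0.00133), and Cds1, which consumes phosphatidic acid, fell in both (−0.42, adjusted p = 0.00151, and −0.45, adjusted p = 0.00174).

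Of 5 other enzymes tested that consume diacylglycerol, 2 fell and 0 rose in each line, where 21.0% and 14.4% of all genes fell, and the genes were not the same, namely Dgat1 and Dgat2 in Bmal1-/- and Dagla and Lipe in Clock-/- cells. Dgat2, a triacylglycerol synthase, changed by −0.73 (adjusted p = 0.00207) in Bmal1-/- cells. Dagla, which makes 2-arachidonoylglycerol, changed by −0.79 (adjusted p = 0.00971) in Clock-/- cells and stood at 0.26 (adjusted p = 0.285) in Bmal1-/- cells. Of 5 relatives with the same kinase fold, 2 rose in Bmal1-/- cells (Sphk1 and Dgkk) and 1 fell in Clock-/- cells (Sphk1). Sphk1, the sphingosine kinase, was at 1.16, 2.00 and 1.45 TPM in WT, 6.70, 5.64 and 6.27 TPM in Bmal1-/- and 0.171, 0.169 and 0.381 TPM in Clock-/- libraries, so it moved in opposite directions (1.51, adjusted p = 3.51e-05, and −1.02, adjusted p = 0.000747). Dgkk, a type II diacylglycerol kinase that was not among the 9 members, was chosen after its values were seen. It was at 0.887, 0.381 and 0.637 TPM in WT, 2.21, 2.61 and 2.44 TPM in Bmal1-/- and 0.228, 0.141 and 0.593 TPM in Clock-/- libraries. The log2 change was 1.07 in Bmal1-/- and −0.31 in Clock-/- cells. Dgkk met the filter on low TPM only through the Bmal1-/- libraries, where it is high. A rise there was thus favoured in advance, so the p-values of Dgkk are not given and its place among the counted rises carries no weight.

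**Figure D4:**
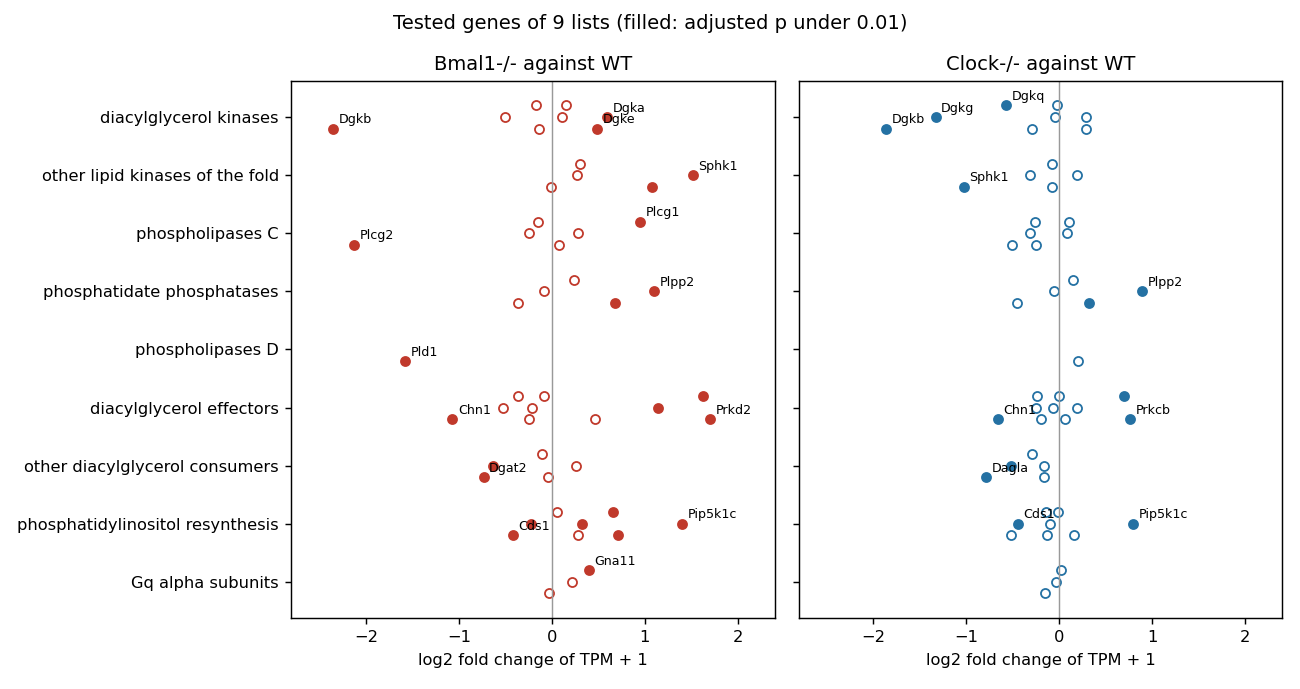
Log2 fold change of TPM + 1 (x axis) of each tested gene of the 9 lists, in Bmal1-/- (left) and Clock-/- (right) cells against WT, with filled points for an adjusted p under 0.01. Diacylglycerol effectors and phosphatidylinositol genes hold rises up to 1.70 and 1.40 in Bmal1-/- cells, and the lowest point in both panels is Dgkb.

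As a check of the cells, all 12 β-cell markers were detected, with summed levels of 54200 to 56600 TPM in WT, 39400 to 42000 in Bmal1-/- and 31500 to 37600 in Clock-/- libraries, and 2 rose and 5 fell in Bmal1-/- while 4 rose and 5 fell in Clock-/- cells. Ins1 was at 57.7 to 64.0 TPM in Clock-/- libraries, where WT had 2277 to 2359 TPM. Markers of other islet endocrine cells (5 of 8 listed were in the table) had summed levels of 569 to 587 TPM in WT, 101 to 111 in Bmal1-/- and 1510 to 1690 in Clock-/- cells, led by Gcg, with 1 rise and 2 falls of 3 tested in Bmal1-/- and 2 rises in Clock-/- cells. Exocrine, stromal, endothelial and immune markers (7 of 12 in the table) summed to 11.0 to 13.7, 2.17 to 3.14 and 22.4 to 23.9 TPM, at least 5 of the 7 were under 1 TPM in every genotype, and Cdh5 was at 0 in all Bmal1-/- libraries. Of 2 tested in this list, 0 rose and 1 fell in Bmal1-/- and 1 rose and 1 fell in Clock-/- cells. Most of the sum was Cd68, a macrophage marker, at a mean of 9.10 TPM in WT, 1.24 in Bmal1-/- (log2 change −2.17, adjusted p = 1.37e-07) and 21.7 in Clock-/- cells (1.17, adjusted p = 1.19e-05). Ptprc, the other immune marker of the list, had a mean of 0.0499, 0.00257 and 0.104 TPM in the same order. The part of these shifts in the members' values was not tested. Fewer cells of a type and less RNA per cell cannot be told apart in such bulk libraries. Arntl was at 3.52 to 4.22 TPM in WT, 3.32 to 3.52 in Bmal1-/- and 10.6 to 16.2 in Clock-/- libraries, and Clock at 40.9 to 49.7, 30.9 to 36.5 and 28.0 to 46.6 TPM. The edits remove exons, not the transcript, so these levels do not check the loss of the proteins.

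THRAP3, a protein associated with RNA processing and transcription, was mapped in the same cells by ChIP-seq, with 2 peak lists for WT and 2 for Bmal1-/- cells. The lists differ in size, with 808 and 6128 peaks in WT and 12949 and 12226 in Bmal1-/- cells, and 0.11% and 0.76% against 1.86% and 1.67% of tags lay in peaks. A member absent from a list was below that list's threshold and is not shown to lack THRAP3. Within 1 kb of a transcript start, no member had a peak in either WT list, against 1.43% and 13.3% of tested genes. In Bmal1-/- cells 5 members had one in the first list (Dgka, Dgke, Dgkh, Dgkq and Dgkz, against 33.6% of genes) and 2 in the second (Dgke and Dgkh, against 28.1%). The genotype and the yield of the immunoprecipitation cannot be told apart in these counts. The Dgkh peaks were centred 81 and 220 bases before a start and covered part of the promoter window printed for that gene, and the Dgke peaks were centred 30 bases before and 604 bases after its start, in an exon. The Dgka and Dgkq peaks lay near other starts, outside the windows printed for these genes.

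Inside gene bodies, 1 and 4 members had a peak in the WT lists, against 2.52% and 16.3% of genes, and 6 and 4 in the Bmal1-/- lists, against 30.7% and 27.3%. Dgkb had one in all 4 lists. It held 1 and 8 peaks in the WT lists and 6 and 7 in the Bmal1-/- lists, at 11 separate positions that were all intronic, of which 4 were seen in 1 list, 4 in 2, 2 in 3 and 1 in all 4. Per length of gene, since Dgkb is long, it had 0.122 and 0.980 peaks per 100 kb in WT against 0.0547 and 0.451 over all tested gene bodies, and 0.735 and 0.857 in Bmal1-/- against 0.976 and 0.873. The position found in all 4 lists carried 17.1 and 27.2 normalised tags (scaled to the same total in each library) in WT and 25.9 and 14.7 in Bmal1-/- lists, 42.4, 67.4, 9.92 and 5.63 times the input. The tag values of the genotypes overlapped, while the ratio to input was higher in both WT lists. Each genotype had 1 ChIP input library, so the 2 ratios of a genotype share an input and are not independent. Of the span covered by these 4 peaks 75.3% is repeat-masked in the reference, against 38.9% of the whole Dgkb gene, and the part of the repeat in the peak was not tested. The positions in 3 lists lay 425.3 and 580.0 kb from the 5′ end, with 19.6% and 0.0% of bases repeat-masked.

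Dgkg had 1 intronic peak, 105.8 kb from its 5′ end, in the second WT list (12.4 normalised tags) and in both Bmal1-/- lists (17.3 and 12). The peaks shared 28 bases, and 10.2% of their span was repeat-masked. The second WT list also had a peak 4.0 kb upstream of Dgkg. Dgkd had 1 intronic peak in the second WT list, Dgkh had 1 in the second WT and the second Bmal1-/- list, and Dgki had 0 in all 4 lists.

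**Figure D5:**
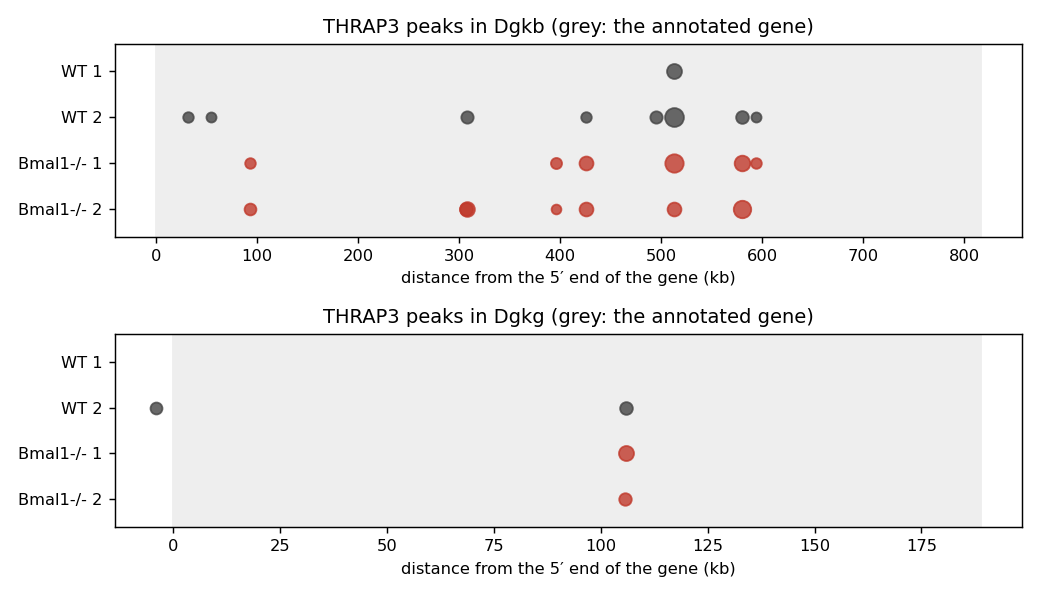
THRAP3 peaks in Dgkb and Dgkg by distance from the 5′ end of the gene (x axis, kb), 1 row per peak list, with the area of a point in proportion to its normalised tags. One Dgkb position is present in all 4 rows and the Dgkg position at 105.8 kb in 3 rows.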

How the data were processed

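RNA-seq of 9 β-TC6 libraries (3 WT, 3 Bmal1-/-, 3 Clock-/-) and 4 THRAP3 ChIP-seq peak lists were used, with groups taken from the sample labels. The authors aligned RNA reads with STAR 2.5.0, counted exons with featureCounts 1.5.3 on GENCODE and deposited TPM, which sums to 1000000 per library and keeps no read depth, so precision rests on the spread between wells. The deposited result columns of DESeq2 1.22.1 (fold changes and p-values of the authors' comparisons) were not used. The authors aligned ChIP reads with Bowtie2 2.2.4 to mm10 and called peaks per immunoprecipitation against input with HOMER. The deposited signal of a peak (tags scaled to a common total), the score and the ratio to input were made by HOMER, and the score served to rank peaks.

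Gene symbols matched 20499 of 20599 identifiers, with positions from GENCODE vM21 (GRCm38). log2(TPM + 1) of genes with TPM of at least 1 in at least 3 libraries was fitted with limma 3.58.1 (R 4.3.3, trend, all 9 libraries) with Benjamini–Hochberg adjustment over 15031 genes. A gene rose or fell at an adjusted p under 0.01. Fold changes of low genes are understated by the added 1. The fit was also run on simulated data with independent noise per gene, which hold no shifts shared by a clone, chromosome or library. Peaks were assigned by their centre, to gene bodies or within 1 kb of a start. Sequences and motif matches came from RefSeq with Python 3.11.15.

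Members and lists were chosen with earlier results of these data known. The rule for naming genes took all members, Arntl and Clock, the largest rise and fall per pathway list and comparison at an adjusted p under 0.01 and a mean of at least 5 TPM, and the 3 genes most like each member that changed by more than 1 on the log2 scale. Marker genes and Prkd3, Prkcd, Dgat1, Lipe, Dgkk, Gm15651, Idua and Tmem175 were added after their values were seen. eCLIP and input libraries were not analysed here. The sequence under 1 THRAP3 peak is not reported here.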

Additional observations from a re-analysis of the deposited data

Results flagged for a closer look

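One member differed between the knockout lines by the test of the difference itself. Dgkg was higher in Bmal1-/- than in Clock-/- cells by 0.82 on the log2 scale (adjusted p = 0.00581), a difference that fell to 0.37 (adjusted p = 0.0691) with chromosome medians subtracted.

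By the same test, with limma and adjustment over all genes, 17 of the 43 tested pathway genes were higher and 6 lower in Bmal1-/- cells. Over all tested genes, 22.8% were higher and 21.8% lower. The genes below were named for their change against WT or after their values were seen. Both choices used the same libraries and favour a difference between the lines, so the p-values below only describe the chosen genes. Of those that the naming rule took, higher in Bmal1-/- cells were Sphk1 by 2.54 (adjusted p = 1.20e-06), Prkd2 by 1.70 (adjusted p = 1.30e-06), Plcg1 by 1.21 (adjusted p = 1.42e-05), Dagla by 1.04 (adjusted p = 0.00114), Pip5k1c by 0.61 (adjusted p = 0.00322) and Gna11 by 0.55 (adjusted p = 3.36e-05). The difference was −2.21 for Plcg2 (adjusted p = 6.87e-07), −1.78 for Pld1 (adjusted p = 1.92e-05), −0.84 for Prkcb (adjusted p = 0.000146) and −0.56 for Dgat2 (adjusted p = 0.00795), all lower in Bmal1-/- cells. Prkd3 and Prkcd, named after their values were seen, were higher in Bmal1-/- cells by 0.92 (adjusted p = 0.000732) and 1.08 (adjusted p = 1.59e-05). Dgkk, also named after its values were seen, was higher there by 1.39, but it met the filter only through the Bmal1-/- libraries and no p-value is given. No group held enough libraries for a check of single outlying values.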

How the results depend on the processing

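Each tested member was refitted under 20 alternatives. Dgkb in both lines and Dgkg in Clock-/- cells passed under all 20. Leaving out 1 library at a time gave 1 to 3 members past the test in Bmal1-/-, 2 to 3 in Clock-/- and 0 to 2 between the lines. The count between the lines was 1, and became 2 with no filter on low TPM, 2 with quantile normalization, 3 with library medians centred, and 0 with chromosome medians or neighbour medians subtracted. Called genes here had both an adjusted p under 0.01 and a log2 change beyond 1 in size. Quantile normalization split the called genes of Bmal1-/- cells into 750 higher and 880 lower, in place of 575 and 1198. Replicate numbers did not pair the libraries, as deviations of same-numbered libraries correlated at −0.208 to 0.0742, and with the replicate block 2 members passed in each line (without Dgke and without Dgkq) and 0 between the lines. With quantile normalization or library medians centred, 4 members passed in Clock-/- cells, with Dgke as a rise. With a mean of at least 5 TPM required, called genes were 1060, 566 and 1325 in place of 1773, 1113 and 2182, since fewer genes were tested. Changed THRAP3 counts near starts were 1 member in the second WT list within 5 kb, 4 and 1 in the Bmal1-/- lists in a narrower window (without Dgkq and without Dgke), and 3 and 1 in the Bmal1-/- lists for peaks above the median score.

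Values near 0 changed sign without passing the test. In Clock-/- cells Dgkd stood at 0.026 with quantile normalization, 0.018 with library medians centred, 0.21 with chromosome and 0.37 with neighbour medians subtracted, and at −0.173 to 0.103 with 1 library left out. Dgkz stood at 0.051 with quantile normalization, 0.038 with library medians, 0.00048 with chromosome medians and −0.0921 to 0.0651 with 1 library left out, and Prkd2 at 0.066 with quantile normalization, 0.060 with library medians and −0.0564 to 0.0306 with 1 library left out. Between the lines Dgke was −0.11 with chromosome medians subtracted and Dgkh −0.096 to 0.413 with 1 library left out, negative without Clock-/- replicate 2, and Arntl in Bmal1-/- cells was 0.12 with quantile normalization. The cause of these shifts was not tested. Of 828 values of the other named genes against WT, 784 kept direction and call, 20 lost and 17 gained a call and 7 turned. TPM gives no read counts, so the depth behind low values such as Dgki is unknown.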
